A study of Mus musculus with 2 samples.

Results

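The serotonin receptor genes Htr1a, Htr1b, Htr1f, Htr2a, Htr2c, Htr3a, Htr4, Htr5a, Htr6 and Htr7 were examined in mouse cerebral cortex. They were chosen by name, as receptor genes of 1 transmitter, and all 10 were found among the 55536 annotated genes of the deposited tables. The RNA came from left cerebral cortices of female B6CASTF1/J mice aged 25 days, first-generation offspring of the C57BL/6 and CAST strains. There are 2 total RNA-seq libraries, biological replicates 1 and 2, each made from 300 ng of RNA, and they form 1 group with no treatment, mutation or time course. The tissue labels number the animals separately but cite 1 donor identifier, so if the animals are not separate the spread between the libraries covers preparation only. Alleles were not told apart, and reads of both strains were counted on the C57BL/6-based build mm10.

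Serotonin reaches the cortex through axons of the raphe nuclei of the brainstem, so cortical cells carry the receptors but not, in the main, the machinery that makes the transmitter. Most serotonin receptors are G protein-coupled: the Htr2 receptors act through Gq/11 and phospholipase C, the Htr1 and Htr5 receptors through Gi/o, which lowers cyclic AMP, and Htr4, Htr6 and Htr7 through Gs, which raises it. Htr3a stands apart as a subunit of a cation channel opened by serotonin. In the cortex Htr2a is best known from pyramidal neurons of the deep layers, Htr1a from pyramidal neurons and interneurons, and Htr3a from interneurons born in the caudal ganglionic eminence.

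The libraries held 31191535 expected counts in replicate 1 and 27079700 in replicate 2 over annotated genes. Expected counts are read counts in which reads that match several transcripts are divided between them. TPM is a level scaled to the library and corrected for transcript length, so different genes can be set side by side. CPM is the count scaled to the library total, with no correction for length, and was used to compare a gene with itself between the libraries. The cortical identity of the tissue was carried by all 8 of 8 markers of cortical projection neurons at 1 TPM or more in both libraries, with a summed TPM of 829 in replicate 1 and 921 in replicate 2. Of 6 markers of serotonergic neurons 1 was detected, and Fev, the transcription factor that defines those neurons, had 0 counts in both libraries. Because this is bulk tissue, fewer cells of a type and less RNA per cell cannot be told apart.

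All 10 receptor genes were detected, at 1 TPM or more in both libraries, and in mean level all lay below the median of detected protein-coding genes. Htr2c and Htr2a, the Gq/11-coupled pair, were the most abundant, and Htr4 was the least abundant. The mean level of Htr2c was 7.45 times that of Htr4. The median receptor gene had 5.95 TPM, against a median of 16.02 TPM over the 12933 detected protein-coding genes of 22015 annotated, with Htr2c alone above the middle rank, in replicate 1 only. The 10 genes together had 69.5 TPM in replicate 1 and 58.7 TPM in replicate 2, a mean of 64.1 ± 7.66 (SD, n = 2).

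**Figure D1:**
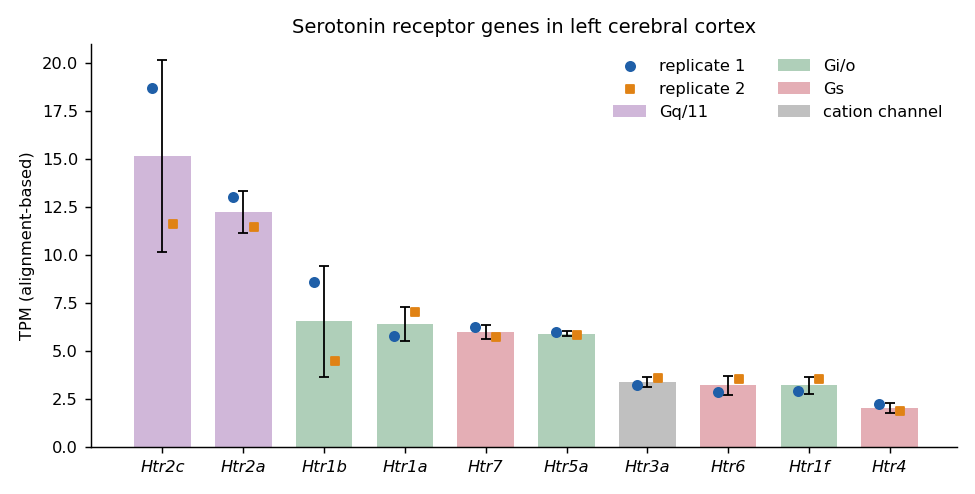
TPM of each serotonin receptor gene from the alignment-based tables, ordered by mean level; bars are means coloured by coupling class, error bars are the SD over 2 libraries, and points are the libraries. Htr2c and Htr2a stand above the other genes in both libraries, and the points of Htr2c and Htr1b lie farthest apart.

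Htr2c encodes the 5-HT2C receptor, whose RNA is known to be edited by ADAR enzymes and alternatively spliced within the second intracellular loop. The gene lies on the plus strand at chrX:146962513-147197277. Htr2c had 18.7 TPM in replicate 1 and 11.6 TPM in replicate 2, a mean of 15.2 ± 4.99 TPM (SD, n = 2). Its level stood at percentile 48.3 of detected protein-coding genes, close to their middle, and at percentile 55.8 in replicate 1 against 39.5 in replicate 2. Its 2 sequences below are shown because the transcripts differ there. In the first, a stretch of 95 bases at chrX:147169676-147169770 on the plus strand that Htr2c-201 holds and Htr2c-207 skips, capitals mark the run of 15 bases whose codons include those known to be edited. In the second, the 20 bases before the Htr2c-207 splice junction, chrX:147169656-147169675, stand in lower case and the bases after it in capitals. Both were read from the GENCODE M21 transcripts on mm10.
Htr2c-201 segment: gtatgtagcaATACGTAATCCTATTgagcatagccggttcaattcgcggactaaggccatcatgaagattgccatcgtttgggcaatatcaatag
Htr2c-207 junction: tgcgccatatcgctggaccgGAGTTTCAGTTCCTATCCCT

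Htr2a encodes the 5-HT2A receptor, the target of classical hallucinogens, and has 1 annotated transcript at chr14:74640840-74709494 on the plus strand. Htr2a had 13.01 TPM in replicate 1 and 11.5 TPM in replicate 2, with a mean of 12.2 ± 1.09 TPM (SD, n = 2), at percentile 41.8. Its range over the libraries overlapped that of Htr2c, so the order of the Gq/11-coupled pair is not set beyond the spread: in replicate 2 the genes had 11.6 TPM (Htr2c) and 11.5 TPM (Htr2a). Both lay above the other 8 receptor genes in each library.

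The Gi/o-coupled group was led by Htr1b and Htr1a, with Htr5a close below and Htr1f near the bottom of the order. Htr1b, known as an inhibitory receptor on axon terminals, lies on the minus strand at chr9:81628291-81633828. Htr1b had 8.59 TPM in replicate 1 and 4.50 TPM in replicate 2, a mean of 6.545 ± 2.89 TPM (SD, n = 2). It therefore ranked directly below Htr2a in replicate 1 but below Htr1a, Htr5a and Htr7 in replicate 2. Htr1a, an inhibitory receptor of cell bodies and dendrites and the autoreceptor of serotonergic neurons, lies on the plus strand at chr13:105443639-105448122. Htr1a had 5.79 TPM in replicate 1 and 7.03 TPM in replicate 2, a mean of 6.41 ± 0.877 TPM (SD, n = 2).

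Htr5a, on the plus strand at chr5:27842149-27855088, encodes a receptor whose roles are less well known. Htr5a had 6 TPM in replicate 1 and 5.82 TPM in replicate 2, a mean of 5.91 ± 0.127 TPM (SD, n = 2), the smallest spread of the 10 genes. Htr1f, the target of the migraine drug lasmiditan, lies on the minus strand at chr16:64924729-65105854. Htr1f had 2.89 TPM in replicate 1 and 3.53 TPM in replicate 2, a mean of 3.21 ± 0.453 TPM (SD, n = 2).

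Among the Gs-coupled genes Htr7 was the most abundant and Htr4 the least. Htr7, on the minus strand at chr19:35958734-36057507, had 6.25 TPM in replicate 1 and 5.73 TPM in replicate 2, a mean of 5.99 ± 0.368 TPM (SD, n = 2). Htr6, whose receptor is found at the primary cilia of neurons, lies on the minus strand at chr4:139061108-139075570. Htr6 had 2.87 TPM in replicate 1 and 3.55 TPM in replicate 2, with the same mean as Htr1f, 3.21 ± 0.481 TPM (SD, n = 2). Htr4, whose receptor raises cyclic AMP in neurons, lies on the plus strand at chr18:62324204-62496577. Htr4 had 2.22 TPM in replicate 1 and 1.85 TPM in replicate 2, a mean of 2.035 ± 0.262 TPM (SD, n = 2) and percentile 6.34 of detected protein-coding genes.

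Htr3a, on the minus strand at chr9:48899213-48911099, encodes the subunit without which the serotonin-gated channel does not form. Htr3a had 3.21 TPM in replicate 1 and 3.58 TPM in replicate 2, a mean of 3.395 ± 0.262 TPM (SD, n = 2). Of 12 markers of caudal ganglionic eminence interneurons, 11 were detected, with a summed TPM of 618 in replicate 1 and 631 in replicate 2. Cck alone had 292 TPM in replicate 1 and 299 TPM in replicate 2, so the sum rests in large part on 1 gene. In CPM, 5 of the 12 markers were higher in replicate 1 and 7 were lower. Calb2 was at least 1.5-fold higher in replicate 1. Prox1, Npas1 and Cnr1 had ratios of 0.802, 0.806 and 0.903, replicate 1 over replicate 2. Their counting intervals, described below, lay wholly below 1, and those of Calb2 and Lamp5 wholly above it. Htr3b, which encodes the partner subunit of the channel, had 0 counts in both alignment-based libraries, which allows up to 0.0962 CPM in replicate 1 and 0.111 CPM in replicate 2. The FASTQ-based tables gave Htr3b 2 counts in replicate 1 and 9 in replicate 2, so the methods differ on this gene.

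The order by mean level was Htr2c, Htr2a, Htr1b, Htr1a, Htr7, Htr5a, Htr3a, then Htr6 and Htr1f at the same level, and Htr4. Of the 9 pairs of neighbours in that order, the ranges over the libraries overlapped in 6. They did not overlap between Htr2a and Htr1b, between Htr5a and Htr3a, or between Htr1f and Htr4, which divides the genes into 4 tiers. Within a tier the order is not resolved beyond the spread, and an exact sign-flip test on 2 libraries cannot give a p below 0.5 for any pair. The FASTQ-based tables, made by the authors from the reads without the alignment step, gave each gene a higher TPM, from 1.28 to 1.65 times the alignment-based value, against a median of 1.54 times over detected protein-coding genes. They kept Htr2c, Htr2a and Htr1b as the first 3 and Htr4 as the last, but placed Htr7 above Htr1a and Htr6 above Htr3a.

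By coupling, the Gq/11 class (Htr2a, Htr2c) held 42.5 ± 4.41% of the summed receptor TPM and the Gi/o class (Htr1a, Htr1b, Htr1f, Htr5a) held 34.5 ± 1.49% (SD, n = 2 for each). The Gs class (Htr4, Htr6, Htr7) held 17.6 ± 1.88% and the channel subunit Htr3a 5.36 ± 1.05%. Over these 10 genes the order of the classes was the same in both libraries. The Gq/11 class held 45.6% in replicate 1 and 39.4% in replicate 2, and the Gi/o class 33.5% and 35.6%. In replicate 2 the Gq/11 class summed to 23.1 TPM and the Gi/o class to 20.9 TPM. The Gi/o sum leaves out Htr1d, a further Htr1 gene with 2.79 TPM there, so the order of these classes in replicate 2 depends on the genes summed. These are shares of RNA, not of receptor protein or binding sites.

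The further genes of the family lay at or below the levels of the lowest receptor genes above. Of the 4 further serotonin receptor genes Htr1d was the only one detected, with 3.22 TPM in replicate 1 and 2.79 TPM in replicate 2, between Htr1f and Htr4 in mean level. Htr5b, a gene whose human counterpart is known to be disrupted, had 0.65 and 1.03 TPM in replicates 1 and 2. Htr2b, known from peripheral tissues, had 1 and 3 counts.

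Set among the 23 other aminergic and muscarinic receptor genes, the serotonin receptor genes filled the middle of the range. Of these 23 genes 7 lay above Htr2c, 8 below Htr4 and 8 between them. The muscarinic receptor Chrm1 was highest with 70.7 TPM in replicate 1 and 67.5 TPM in replicate 2, followed by the histamine receptor Hrh3 with 42.3 and 41.9 TPM. The muscarinic receptor Chrm3 had 22.1 and 28.6 TPM in replicates 1 and 2, and the adrenergic receptor Adra1d 20.5 and 22.8 TPM. Adra1b, with a mean of 12.6 TPM, was the only one of the 23 between Htr2c and Htr2a, and Chrm2, with a mean of 5.705 TPM, the only one between Htr5a and Htr3a.

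**Figure D2:**
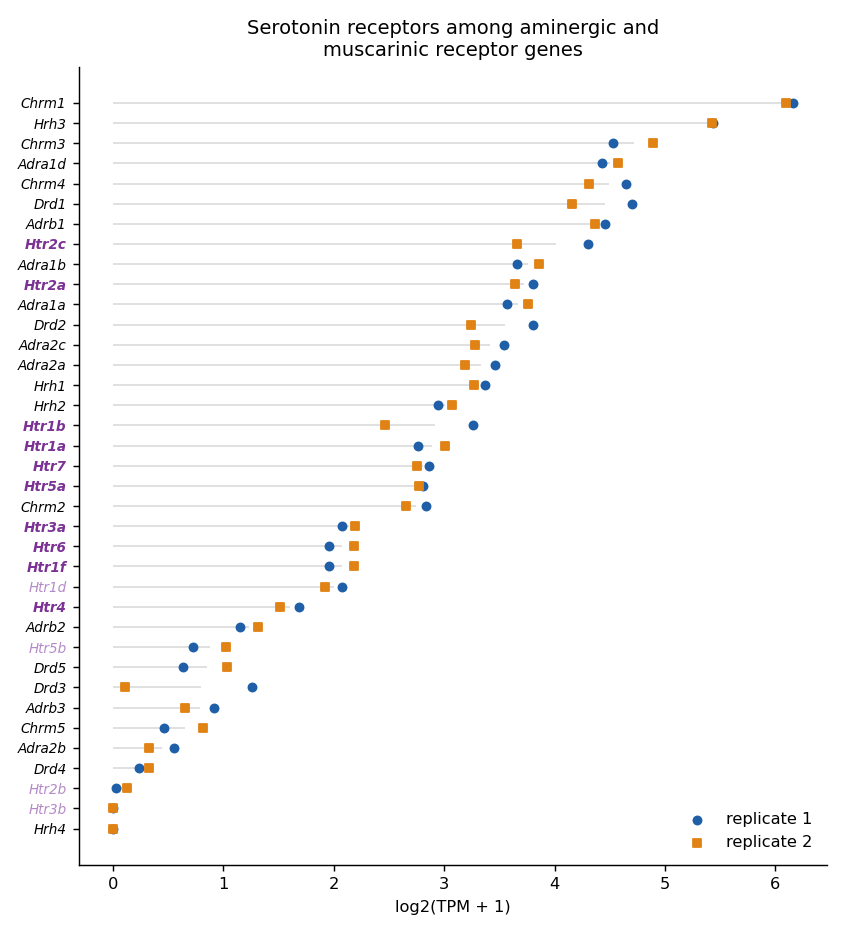
Levels of serotonin receptor genes (bold purple for the 10 genes, light purple for Htr1d, Htr5b, Htr2b and Htr3b) and 23 other aminergic and muscarinic receptor genes (black) as log2(TPM + 1); points are the 2 libraries and grey lines run to the mean. Chrm1 and Hrh3 lie at the top, Htr2c follows the first 7 genes, and Htr4 lies above 8 other receptor genes.

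The genes that make and clear serotonin were mostly low. Of the 12 genes of this list 6 were detected. Tph2, the rate-limiting enzyme of serotonin synthesis in neurons, had 27 counts (0.51 TPM) in replicate 1 and 20 counts (0.45 TPM) in replicate 2. Tph1, its peripheral counterpart, had 6 and 11 counts, and Slc6a4, the serotonin transporter, had 1 and 3 counts. Slc18a2, the vesicular monoamine transporter, had 7 and 8 counts in replicates 1 and 2, and Gch1, which makes the cofactor of the Tph enzymes, had 0.61 and 0.81 TPM. Enzymes and transporters that are not specific to serotonergic neurons were higher. Aldh2, an aldehyde dehydrogenase, had 43.5 TPM in replicate 1 and 43.7 TPM in replicate 2. The monoamine oxidases had 7.70 and 7.89 TPM (Maoa) and 5.39 and 5.17 TPM (Maob) in replicates 1 and 2. Ddc, the decarboxylase of the second step of synthesis, had 3.04 and 3.58 TPM, and the low-affinity transporters had 8.99 and 7.19 TPM (Slc29a4) and 1.20 and 1.09 TPM (Slc22a3).

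Most downstream genes lay above the receptor genes in mean TPM: 16 of 20 G protein and effector genes and 16 of 19 partners and regulators were above Htr2c. Of the G protein and effector genes 19 were detected, led by Gnas, the Gs alpha subunit, with 747 TPM in replicate 1 and 734 TPM in replicate 2. Gnao1, the main brain Go alpha subunit, had 325 and 347 TPM, the inositol trisphosphate receptor Itpr1 165 and 179 TPM, and the adenylyl cyclase Adcy1 107 and 134 TPM in replicates 1 and 2. All 19 of 19 receptor partners and regulators were detected, led by Rgs4, which speeds the shut-off of Gi/o and Gq/11, with 246 and 240 TPM. The receptor kinase Grk2 had 97.5 and 94.7 TPM, the arrestin Arrb1 78.9 and 73.7 TPM, and Adarb1, an enzyme known to edit Htr2c RNA, 64.0 and 63.5 TPM. Editing itself was not measured, since the tables hold no base-level data.

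Between the libraries most receptor genes differed little, and Htr1b and Htr2c were the exceptions. Each gene was compared as the ratio of its CPM in replicate 1 over replicate 2, with an exact 95% interval from the 2 counts, which covers counting error only. With 1 library per replicate the differences have no further check, so no p-value is given. Of the 10 receptor genes, 2 were at least 1.5-fold apart, both higher in replicate 1. Over 15682 genes with a mean of at least 1 CPM, 5.60% were at least 1.5-fold apart in either direction, 1.52% being higher in replicate 1 and 4.08% higher in replicate 2. None of the 10 receptor genes was 1.5-fold higher in replicate 2.

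Htr1b had 693 expected counts in replicate 1 and 331 in replicate 2, a ratio of 1.82 (1.59 to 2.08). Htr2c had 1669 expected counts in replicate 1 and 858 in replicate 2, a ratio of 1.69 (1.55 to 1.84). For both genes the ratio lay between 1.61 and 1.91 under every other scaling tried and in the FASTQ-based counts. Htr4, with 125 counts in replicate 1 and 75 in replicate 2, had a ratio of 1.45 (1.08 to 1.95). That interval runs to both sides of 1.5, so at this depth Htr4 cannot be placed on either side of it. Htr2a followed with 1491 and 1104 counts in replicates 1 and 2 and a ratio of 1.17 (1.08 to 1.27).

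Htr1a was the only receptor gene whose interval lay wholly below 1, with 528 counts in replicate 1 and 539 in replicate 2 and a ratio of 0.850 (0.753 to 0.961). In all, 5 of 10 intervals left out 1, compared with 31.4% of the 15682 genes. The other 5 genes differed by less than their counting error. Their ratios were 1.12 (0.951 to 1.31) for Htr7, 1.07 (0.949 to 1.20) for Htr5a and 0.919 (0.710 to 1.19) for Htr6. They were 0.912 (0.704 to 1.18) for Htr3a and 0.845 (0.670 to 1.07) for Htr1f. The ratio was above 1 for 6 genes and below 1 for 4, with a median of 1.09, against a median of 0.987 over all 15682 genes. Among the further family members Htr1d, with 135 counts in replicate 1 and 65 in replicate 2, had a ratio of 1.80 (1.33 to 2.46). Htr5b, with 25 and 33 counts, had a ratio of 0.658 (0.375 to 1.14). Both were at least 1.5-fold apart, Htr1d higher in replicate 1 and Htr5b higher in replicate 2, although the interval of Htr5b holds 1.

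**Figure D3:**
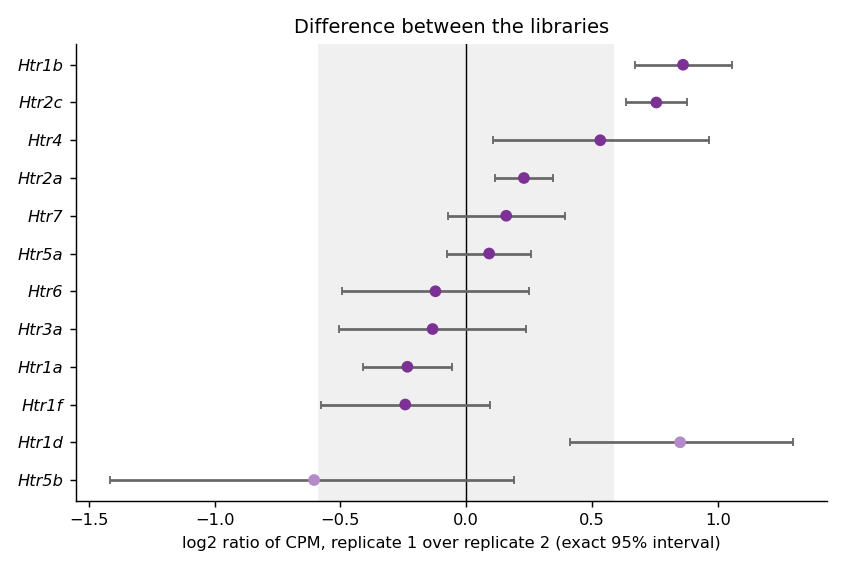
Log2 ratio of CPM, replicate 1 over replicate 2, for the 10 serotonin receptor genes (dark purple) and Htr1d and Htr5b (light purple); bars are exact 95% counting intervals and the grey band spans 1.5-fold in either direction. Htr1b and Htr2c lie to the right of the band with their whole intervals, and Htr4 lies inside it with an interval that crosses its edge.

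Most listed markers of striatum, of choroid plexus and ependyma, and of thalamus and hypothalamus were higher in replicate 1, as Htr1b and Htr2c were, while 4 of 7 hippocampal markers were lower in replicate 1. All 11 of 11 markers of striatal projection neurons had a ratio above 1, and 7 of 11 were at least 1.5-fold higher in replicate 1. Their summed TPM was 642 in replicate 1 and 440 in replicate 2, their median ratio was 1.56, and none was at 0. The dopamine receptors Drd1 and Drd2, which belong to that list, had 24.98 and 12.98 TPM in replicate 1 and 16.88 and 8.44 TPM in replicate 2, with ratios of 1.73 and 1.59. Of 10 markers of choroid plexus and ependyma, 9 had a ratio above 1 and none was at 0 counts in both libraries, with a summed TPM of 108 in replicate 1 and 12.05 in replicate 2. Only 4 of the 10 were detected. Of 6 tested, 3 were at least 1.5-fold higher in replicate 1. Foxj1 had a ratio of 1.17 (0.903 to 1.51) and Ccdc153 a ratio of 0.868 (0.284 to 2.65). The intervals of Folr1 and Kcnj13 also held 1, while those of the remaining markers lay above it. Ttr, transthyretin, the most abundant product of the choroid plexus, had 2172 counts in replicate 1 and 91 in replicate 2, a ratio of 20.7 (16.8 to 25.8). It made up most of the difference in the sum: the 9 other markers summed to 11.7 TPM in replicate 1 and 7.26 TPM in replicate 2, a comparison added after seeing the data. Striatal projection neurons are known to carry Htr1b, and choroid plexus epithelium is known for its very high Htr2c. The part of these cells in the ratios of Htr1b and Htr2c was not tested.

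Of 8 markers of thalamus and hypothalamus, 7 had a ratio above 1 and 4 of 7 tested were at least 1.5-fold higher in replicate 1. Their summed TPM was 83.0 in replicate 1 and 22.2 in replicate 2, and the orexin gene Hcrt had 120 counts in replicate 1 and 0 in replicate 2. Most of the difference in the sum came from Pmch, Hcrt and Avp. They had 35.6, 11.8 and 8.88 TPM in replicate 1 and 0.35, 0 and 0.36 TPM in replicate 2. Tcf7l2, Prkcd and Lef1 of the same list had ratios of 1.06, 1.27 and 0.849, none of them 1.5-fold apart. Of 9 immediate early genes, 8 were at least 1.5-fold higher in replicate 1, with a summed TPM of 395 in replicate 1 and 240 in replicate 2. Markers of myelinating oligodendrocytes moved the other way, 6 of 6 having a ratio below 1, with a summed TPM of 1428 in replicate 1 and 2246 in replicate 2. All 8 of 8 cortical projection neuron markers also had a ratio below 1, and none was 1.5-fold apart. All 8 of 8 markers of inhibitory neurons had a ratio above 1, with a summed TPM of 653 in replicate 1 and 590 in replicate 2 and none 1.5-fold apart. The intervals of Sst, Pvalb, Vip and Lhx6 held 1, and those of Gad1, Gad2, Slc32a1 and Lamp5 lay above it. In the FASTQ-based counts Sst and Pvalb had ratios of 0.976 and 0.995. Most of the difference in the sum came from Gad1, Gad2 and Slc32a1. They had 172, 60.7 and 48.9 TPM in replicate 1 and 148, 43.4 and 38.8 TPM in replicate 2. Of the other lists, 0 of 8 upper-layer, 0 of 7 astrocyte and 0 of 6 microglial markers were 1.5-fold apart, while 1 of 11 deep-layer and 2 of 6 tested hippocampal markers were at least 1.5-fold higher in replicate 2 and none was in replicate 1. The part of these genes' cells in the ratios of the receptor genes was likewise not tested.

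The serotonin pathway lists are read against the 5.60% of all tested genes that were 1.5-fold apart, a share that leaves lists this short few such genes. None of the 7 tested genes of serotonin synthesis and clearance, none of the 19 tested G protein and effector genes and none of the 19 receptor partners was 1.5-fold apart in either direction. Of 17 tested genes among the other aminergic and muscarinic receptors, Drd1 and Drd2 were 1.5-fold higher in replicate 1 and 1 gene was higher in replicate 2, Drd5 with 35 counts in replicate 1 and 56 in replicate 2.

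The 10 genes have 27 annotated transcripts. Htr2a, Htr1a, Htr5a and Htr1f have 1 each, and the remaining 6 genes have 23 between them. The authors' tables give each transcript's percent of its gene's TPM, and bounds in TPM from a posterior distribution. The bounds do not describe the division of reads alone. Htr2a and Htr1a have 1 transcript each, and their bounds still had some width and did not overlap between the libraries. Of the 23 transcripts of the remaining 6 genes, 22 had bounds that overlapped between the libraries. The exception was Htr1b-202, with bounds of 5.94 to 7.11 TPM in replicate 1 and 3.31 to 4.25 TPM in replicate 2. Its share of the gene was lower in replicate 1, at 78.3%, than in replicate 2, at 88.0%. The gap between its bounds therefore goes with the higher level of Htr1b in replicate 1, not with a higher share.

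For Htr2c the full-length coding transcript Htr2c-201, with a coding sequence of 1377 bases, led in both libraries, at 62.7% in replicate 1 and 86.8% in replicate 2 of the gene's TPM. Htr2c-207, which skips the 95 bases printed above and has a coding sequence of 516 bases, held 20.1% in replicate 1 and 0% in replicate 2. Its expected counts were 356 in replicate 1 and 0 in replicate 2, and the FASTQ-based counts were 325 and 0.229. The 95-base segment carries the edited codons, so a transcript without it cannot be edited there.

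The size of the contrast in Htr2c-207 depends on how reads were divided. The deposited posterior bounds for Htr2c-207 ran from 1.59 to 5.25 TPM in replicate 1 and from 4.4e-05 to 2.27 TPM in replicate 2, and they overlap. The posterior mean counts were 329 in replicate 1 and 74.5 in replicate 2, and the posterior mean shares 18.0% and 7.64%. The point estimate of 3.76 TPM in replicate 1 lay above the upper bound of replicate 2. That of 0 TPM in replicate 2 lay below the lower bound of replicate 1. The overlap of the bounds therefore does not settle whether the libraries differ in Htr2c-207. Counting the full-length coding transcripts Htr2c-201 and Htr2c-202 alone gave 1239 counts in replicate 1 and 819 in replicate 2, a CPM ratio of 1.31. The same ratio was 1.48 from the posterior means and 1.37 from the FASTQ-based counts, each below the ratio of the whole gene. Transcripts of Htr2c without a coding sequence, among them those with retained introns, held 9.92% in replicate 1 and 13.2% in replicate 2. Their FASTQ-based share was 5.84% and 5.29%. The largest of them in the alignment-based tables was Htr2c-205, not a retained-intron transcript, at 4.65% and 8.19%. It had 9.93 and 9.14 expected counts in replicates 1 and 2, and 0 FASTQ-based counts in both.

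**Figure D4:**
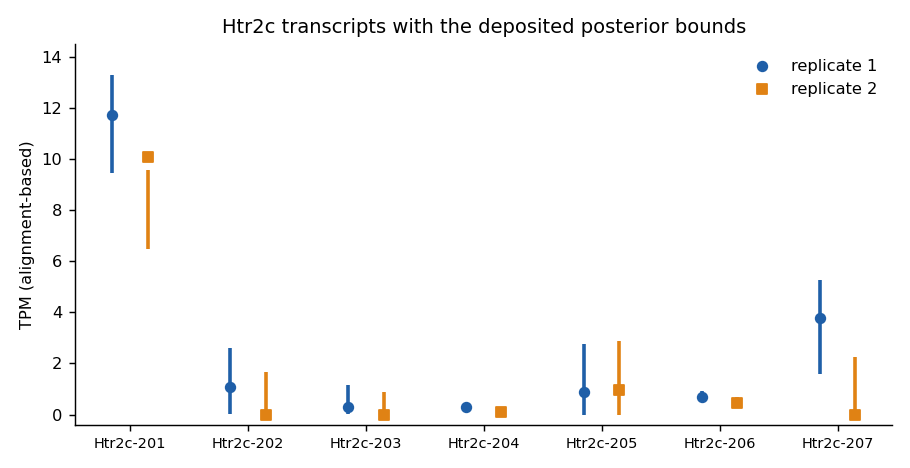
TPM of the 7 Htr2c transcripts in replicate 1 (circles) and replicate 2 (squares) with the bounds of the authors' posterior distribution as vertical lines; the point estimate can lie outside the bounds. Htr2c-201 is highest in both libraries, and the lines of Htr2c-207 overlap although its points are at 3.76 TPM and 0 TPM.

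The introns of Htr2c host 8 small RNA genes on the same strand, 7 of them miRNA genes, among them Mir764, Mir1912, Mir1264, Mir1298 and Mir448. None had a count in either library. Whether these total RNA-seq libraries recover RNAs this short was not tested. The absence of counts therefore does not show whether these 8 genes are expressed. Htr1b and Htr3a overlap genes on the opposite strand, and whether the counting used strand is not given in the sources used here, so their counts are uncertain to that extent. The antisense partner of Htr1b, D430036J16Rik, had 95 counts in replicate 1 and 83 in replicate 2, and that of Htr3a, Gm32335, had 0 counts in both.

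Htr1b-202 led its gene at 78.3% in replicate 1 and 88.0% in replicate 2, and Htr1b-201, which has the same coding length of 1158 bases, held the rest. Htr6-202 led at 88.0% in replicate 1 and 68.8% in replicate 2, again beside a transcript, Htr6-201, of the same coding length of 1320 bases.

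Htr3a-202 held 100% of its gene's TPM in replicate 1 and 66.3% in replicate 2, and Htr3a-201 held 0% and 33.7%. The coding sequence has 1467 bases in Htr3a-201 and 1449 in Htr3a-202. The 18 bases, or 6 codons, by which the coding lengths differ lie at chr9:48899991-48900008 on the minus strand and are shown in capitals. The whole transcripts, of 2082 and 1987 bases, also differ outside the coding sequence.
Htr3a-201: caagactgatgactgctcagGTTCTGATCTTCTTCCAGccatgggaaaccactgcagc
Htr3a-202: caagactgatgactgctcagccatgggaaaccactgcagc
The posterior mean share of Htr3a-201 was 7.87% in replicate 1 and 35.2% in replicate 2, and the FASTQ-based share 28.7% and 53.9%. Both methods placed the share lower in replicate 1, but they differed in its size and in which transcript led in replicate 2, and the posterior bounds of the libraries overlapped.

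Htr7 was the most divided gene. Htr7-202 led in both alignment-based tables, at 37.8% in replicate 1 and 33.0% in replicate 2, followed by Htr7-204 at 23.0% and 31.3% and Htr7-205 at 18.4% and 16.0%. Htr7-205 holds 5 bases at chr19:35969304-35969308 on the minus strand that Htr7-202 lacks, in capitals below. The stretch is no whole number of codons, and the coding sequence has 1305 bases in Htr7-205 and 1344 in Htr7-202.
Htr7-205: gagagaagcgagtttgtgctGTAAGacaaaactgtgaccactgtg
Htr7-202: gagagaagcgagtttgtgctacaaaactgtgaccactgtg
Transcripts of Htr7 annotated as targets of nonsense-mediated decay, a route that degrades messages with an early stop codon, held 36.4% in replicate 1 and 45.4% in replicate 2. Their FASTQ-based share was 47.0% in replicate 1 and 67.1% in replicate 2, and those tables named Htr7-205 in replicate 1 and Htr7-206 in replicate 2 as leader. The leading Htr7 transcript was therefore not settled between the methods.

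Htr4 had the fewest counts, and its leader by alignment-based TPM differed between the libraries. Htr4-201 led in replicate 1 at 45.7% and held 34.9% in replicate 2, and Htr4-204 held 23.6% in replicate 1 and led in replicate 2 at 56.0%. Htr4-202 held 30.7% in replicate 1 and 0% in replicate 2, and Htr4-203 0% and 9.16%. In expected counts Htr4-201 was first in both libraries, with 96.4 in replicate 1 and 51.3 in replicate 2. It also led the FASTQ-based TPM in both, with 56.5% in replicate 1 and 34.8% in replicate 2. Of the 6 genes with several transcripts, 5 had the same leader in both libraries in the alignment-based tables, 4 in the FASTQ-based tables, and 3, Htr2c, Htr1b and Htr6, in all of them.

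**Figure D5:**
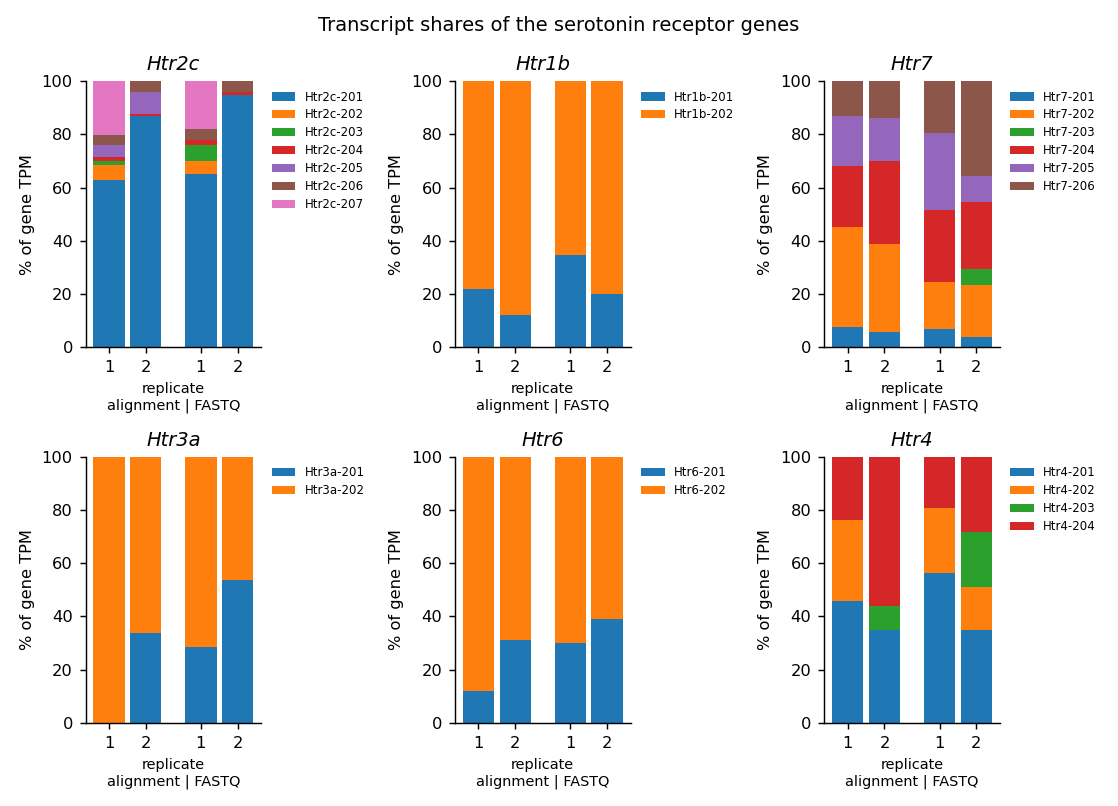
Percent of each gene's TPM held by its annotated transcripts, for the 6 receptor genes with more than 1 transcript; in each panel the left pair of bars is alignment-based and the right pair FASTQ-based, with replicate 1 left of replicate 2. Htr2c-201, Htr1b-202 and Htr6-202 take the largest part of all 4 bars of their genes, while the bars of Htr7, Htr3a and Htr4 differ in their leading transcript.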

How the data were processed

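The 2 total RNA-seq libraries of left cortex were compared as 1 group. Per the deposited descriptions, the authors made tables on mm10 with GENCODE M21 from transcriptome alignments and, separately, from the FASTQ reads. The sources used here name no tools. Per the file headers, the deposited alignment-based tables hold expected counts and TPM per gene, and per transcript also the percent of the gene's TPM and posterior bounds, which were handled as a score. The deposited FASTQ-based tables hold estimated counts and TPM per transcript, summed here per gene. Entries without a mouse gene ID (26345, holding 0.350% and 0.378% of the counts in replicates 1 and 2) were left out. All 55536 gene IDs matched M21.

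Genes were detected at 1 TPM or more in both libraries. CPM were made from expected counts of annotated genes, and ratios carry exact binomial 95% intervals. Ratios were compared over genes with a mean of at least 1 CPM, with a 1.5-fold threshold. A count of 0 allows up to 3 counts. The intervals cover counting error only and treat each count as separate. The tables carry no molecular identifiers, so copies of 1 molecule cannot be told from separate molecules, and the intervals may be too narrow. The ratio step was tested on simulated data. Alternatives used edgeR 4.0.16 TMM factors and DESeq2 1.42.0 size factors in R 4.3.3, on rounded expected counts. Other work used Python 3.11.15 with pandas 2.3.3, scipy 1.17.1, matplotlib 3.10.9 and numpy 2.4.6.

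The receptor genes and gene lists were chosen with earlier results of these data known. From each pathway list the text names up to 4 of the most abundant genes and every gene past 1.5-fold at a mean of at least 5 CPM; all genes of the other serotonin receptors and of serotonin handling are named. Other genes were named after their values were seen: Adra1b and Chrm2 for their place between receptor genes, and Drd5, Fev and Ttr. So were Hcrt, Pmch, Avp, Tcf7l2, Prkcd and Lef1. The same holds for the markers Foxj1, Ccdc153, Folr1, Kcnj13, Gad1, Gad2, Slc32a1, Lamp5, Sst, Pvalb, Vip, Lhx6, Cck, Prox1, Npas1 and Cnr1.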

Additional observations from a re-analysis of the deposited data

How the results depend on the processing

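All 10 receptor genes were detected with either library alone, in the FASTQ-based tables and at 0.5 TPM, and 9 at 2 TPM. Their median percentile was 23.2 among detected protein-coding genes and lay between 21.3 and 24.8 with either library alone. It was 27.0 in the FASTQ-based tables, 35.3 in CPM without length correction, and 54.9 when undetected protein-coding genes were ranked too. Either library alone gave Gq/11 shares of 39.4% to 45.6%, Gi/o 33.5% to 35.6%, Gs 16.3% to 18.96% and the channel 4.62% to 6.10%. In CPM the shares were 50.5% for Gq/11, 36.1% for Gi/o, 10.9% for Gs and 2.52% for the channel, because CPM is not per length. Of the 8 untied neighbour pairs in the order of levels, 6 to 7 had the same order with either library alone, 6 in the FASTQ-based tables and 4 in CPM. The 1.5-fold rule called 2 genes under each scaling, in the FASTQ-based counts and with no filter, while a lower fold, also planned, called 3 and 2-fold called 0. Of 60 recomputed log2 ratios 0 reversed, and all 60 lay within the counting interval. The TMM and DESeq2 factors shift every log2 ratio by the same amount. A constant added to CPM draws a log2 ratio toward 0 and cannot reverse it. Only the deposited TPM and the FASTQ-based counts could therefore change the direction of single genes separately. A transcript with at least 50% of the TPM led 4 genes, 3 in the FASTQ-based tables and 4 to 5 with either library alone. The posterior shares were an alternative chosen after seeing the data. Leaving out a library leaves no ratio between libraries. No paired analysis was possible because there is 1 group. In depth, 3 counts are 0.350% of the Htr2c counts in replicate 2, below the posterior mean share of 7.64% for Htr2c-207 there. Htr4, Htr3a, Htr6 and Htr1f have at most 153 counts per library, and on the log2 scale their intervals are the widest of the 10.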
